A study of Mus musculus with 15 samples.

Results

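The kallikrein-related peptidases of the epidermis and their inhibitor *Spink5* were followed through the skin libraries as 9 genes, *Klk5*, *Klk6*, *Klk7*, *Klk8*, *Klk10*, *Klk11*, *Klk13*, *Klk14* and *Spink5*. They were chosen by symbol, and all 9 had a row among the 55487 genes of the count table. Expression was measured by QuantSeq 3′ mRNA sequencing of skin from 3-week-old C57BL/6 mice, in 15 libraries that form 3 groups of 5. The study asked how skin that lacks OTULIN, a deubiquitinase that removes linear ubiquitin chains, differs from control skin in unaffected and affected areas. The WT group held littermates with loxP-flanked *Otulin* alleles and no Cre, and their skin was labelled non-lesional. The OTULIN-KO groups carried the same flanked alleles with the K14-Cre transgene, and were sampled as unaffected (non-lesional) or affected (lesional) skin. The keratin 14 promoter drives Cre in basal keratinocytes and their descendants, so fibroblasts, fat, muscle and leukocytes in each piece of skin still carried *Otulin*. The sources used here do not say whether lesional and non-lesional pieces came from the same mice, so p-values measure the spread between these libraries.

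Kallikreins are secreted serine proteases that are made as inactive precursors in the upper living layers of the epidermis and activate one another in a cascade. In the stratum corneum the trypsin-like *Klk5* and *Klk14* and the chymotrypsin-like *Klk7* cut the corneodesmosome proteins that hold corneocytes together, which lets cells shed. *Spink5* encodes LEKTI, a Kazal-type inhibitor with many domains that blocks these proteases, and its loss causes the barrier disease Netherton syndrome.

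The 8 kallikrein genes lie side by side on chromosome 7, all on the plus strand, within 160.8 kb of the GRCm38 assembly. From low to high coordinate the order is *Klk14*, *Klk13*, *Klk11*, *Klk10*, *Klk8*, *Klk7*, *Klk6* and *Klk5*, starting at chr7:43690418-43695536 for *Klk14* and ending at chr7:43841971-43851181 for *Klk5*. *Klk12* and *Klk9*, which are not among the 9 genes, sit inside this run. *Spink5* lies on another chromosome. Exons of *Klk8* and *Klk14* share 382 and 287 bases with exons of *2310002F09Rik* on the opposite strand, and the counting commands list no strand setting, so reads in those stretches may have been counted for both genes. The other 7 genes share no exon base with another gene in the GENCODE M21 annotation.

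The promoter windows of the kallikreins are shown because genes that are neighbours in the cluster spread very unequally across the libraries. RefSeq windows of 300 bases (250 before and 50 after the annotated start, GRCm38.p6, plus strand) were found for 8 of the 9 genes, with 10 windows in all since *Klk6* and *Klk11* each have more than 1 start. The windows of the genes highest in lesional replicates 2 and 11 relative to WT (*Klk13*, *Klk6* and *Klk7*) and of one that stayed within the WT range there (*Klk5*) read as follows, 5′ to 3′, with matches to the GC box GGGCGG or its reverse complement in capitals.
*Klk13*, chr7:43712317-43712616: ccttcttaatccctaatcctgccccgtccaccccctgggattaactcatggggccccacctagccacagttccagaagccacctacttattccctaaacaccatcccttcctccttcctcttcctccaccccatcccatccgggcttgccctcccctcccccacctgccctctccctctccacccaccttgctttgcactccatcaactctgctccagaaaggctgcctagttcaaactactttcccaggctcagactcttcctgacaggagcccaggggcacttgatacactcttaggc
*Klk7*, chr7:43811044-43811343: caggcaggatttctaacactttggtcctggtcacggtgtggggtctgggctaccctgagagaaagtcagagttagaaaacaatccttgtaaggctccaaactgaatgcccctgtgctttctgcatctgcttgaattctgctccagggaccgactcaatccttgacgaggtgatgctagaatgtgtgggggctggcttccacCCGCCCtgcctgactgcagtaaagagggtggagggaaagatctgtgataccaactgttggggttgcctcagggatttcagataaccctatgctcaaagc
*Klk6*, first start, chr7:43824294-43824593: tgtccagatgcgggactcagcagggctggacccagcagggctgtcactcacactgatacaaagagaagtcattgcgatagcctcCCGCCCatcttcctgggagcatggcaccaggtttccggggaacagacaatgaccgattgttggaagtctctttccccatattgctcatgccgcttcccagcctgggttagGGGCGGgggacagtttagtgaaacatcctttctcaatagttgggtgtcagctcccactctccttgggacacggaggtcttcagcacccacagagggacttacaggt
*Klk6*, second start, chr7:43825200-43825499: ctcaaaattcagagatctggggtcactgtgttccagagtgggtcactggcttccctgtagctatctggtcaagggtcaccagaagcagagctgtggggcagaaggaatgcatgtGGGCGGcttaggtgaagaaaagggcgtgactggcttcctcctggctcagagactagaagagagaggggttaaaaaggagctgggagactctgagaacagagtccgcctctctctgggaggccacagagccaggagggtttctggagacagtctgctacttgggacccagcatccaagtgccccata
*Klk5*, chr7:43842019-43842318: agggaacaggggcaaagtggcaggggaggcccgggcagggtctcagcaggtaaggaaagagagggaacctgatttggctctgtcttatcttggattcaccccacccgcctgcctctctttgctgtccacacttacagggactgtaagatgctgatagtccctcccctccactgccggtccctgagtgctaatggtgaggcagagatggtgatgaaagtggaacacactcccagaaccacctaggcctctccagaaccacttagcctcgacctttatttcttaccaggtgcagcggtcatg
Both strands of each window were searched, and none of the matches overlapped another. The letters searched for AP-1 were TGANTCA. Those for STAT proteins were TTCNNNGAA. The TATA box was searched with the letters TATAAA. A GC box was in 4 of the 10 windows, those of *Klk8*, *Klk7* and both of *Klk6*, and 35.7% of all 32851 mouse promoter windows hold one. The STAT letters matched only in *Klk10*, against 8.30% of all windows. No kallikrein window held the AP-1 letters, against 7.81% of all windows, or TATAAA, against 13.6%. These are matches of letters and no binding was measured.

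Sequencing depth lay between 1962604 and 2567138 counts per library, of which the 10 most abundant genes held 18.3% to 23.2%. The study's methods give the same RNA integrity limit both as a reason to exclude samples and as a property of those included. RNA quality is therefore not known here. *Otulin* itself had 29 to 64 counts in WT, 50 to 69 in non-lesional and 37 to 64 in lesional libraries, with log2 differences of 0.18 and 0.10 from WT (edgeR adjusted p = 0.9998 and 0.972). The sources used here do not say which exons are deleted, and the reads come from the 3′ end, so these counts do not check the genotype. The keratinocyte genes that define skin were abundant in every library, with summed CPM of the suprabasal list between 8779 and 16562 and of the basal list between 5872 and 11782. The lesional libraries were not alike. *Krt6b*, a keratin of wounded and hyperproliferative epidermis, was at 3531 CPM in lesional replicate 2 and 8733 in lesional replicate 11, but at 2.57, 1.20 and 4.85 in lesional replicates 5, 8 and 14, within the range of 0.850 to 17.1 of all WT and non-lesional libraries other than non-lesional replicate 3, which had 220. Results are therefore given with all 5 lesional libraries and again without replicates 2 and 11, a repeat added after the values were seen. In whole skin, fewer cells of a type and less RNA per cell cannot be told apart.

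In WT skin the 9 genes spanned 3 orders of magnitude. Levels are CPM, counts per 1000000 counts of the library after TMM scaling of library sizes, and since each transcript gives reads only at its 3′ end they were compared between genes without a correction for length. *Spink5* was highest with 2248 ± 228 CPM (SD, n = 5), followed by *Klk7* with 789 ± 194 CPM, and *Spink5* was above *Klk7* in all 5 WT libraries, with a ratio of the group means of 2.85. *Klk10* (148 ± 72.4 CPM) and *Klk5* (98.8 ± 34.4 CPM) came next with overlapping ranges. *Klk8* (25.8 ± 10.2 CPM), *Klk6* (24.7 ± 15.6 CPM) and *Klk11* (14.6 ± 2.39 CPM) overlapped as neighbours in the order. *Klk14* (2.64 ± 2.60 CPM) and *Klk13* (1.89 ± 0.142 CPM) were lowest and overlapped, with 1 to 16 and 4 to 5 counts per library. The steps from *Spink5* to *Klk7*, from *Klk7* to *Klk10*, from *Klk5* to *Klk8* and from *Klk11* to *Klk14* separated the WT ranges.

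**Figure D1:**
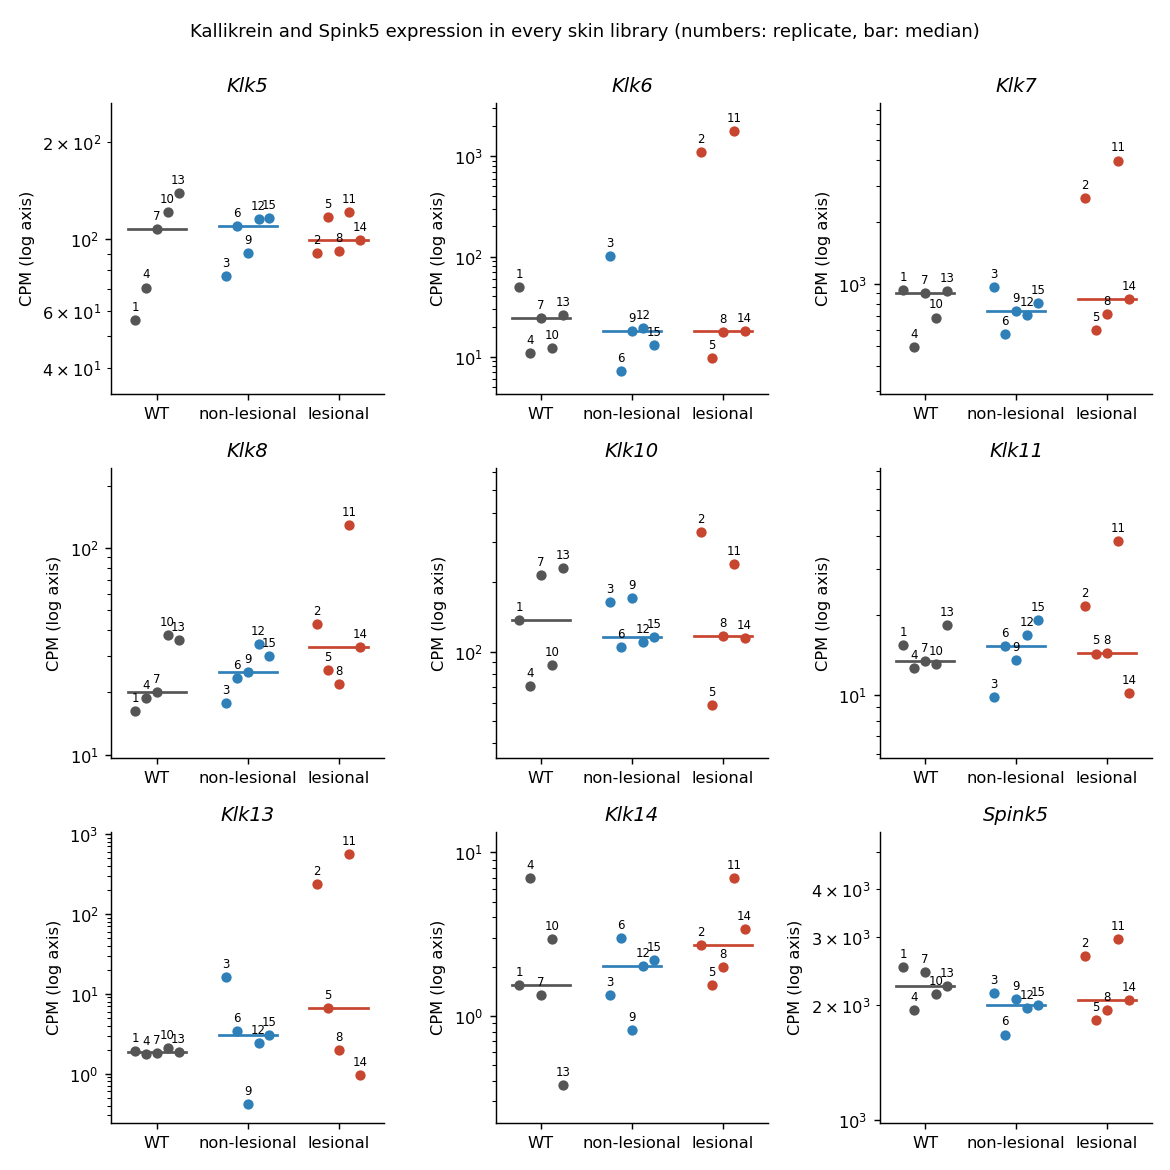
Each panel plots the CPM (log axis) of 1 gene in the 15 libraries by group, with the replicate number beside each point and the group median as a bar. Lesional replicates 2 and 11 stand above all other points for *Klk6* (1103 and 1785 CPM), *Klk7* and *Klk13*, while *Klk5* stays between 56.3 and 139 CPM in all groups.

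*Klk6*, a trypsin-like kallikrein, had one of the widest ranges of the 9 genes. It was at 49.7, 10.9, 24.6, 12.2 and 26.3 CPM in WT replicates 1, 4, 7, 10 and 13. In non-lesional replicates 3, 6, 9, 12 and 15 it was at 102, 7.22, 18.1, 19.2 and 13.1 CPM. In lesional replicates 2, 5, 8, 11 and 14 it was at 1103, 9.75, 17.6, 1785 and 18.0 CPM. Replicates 2 and 11 were thus 10.8 and 17.5 times the highest of the other 13 libraries, and the other 3 lesional libraries lay within or just below the WT range. The fitted log2 fold change of lesional against WT was 4.56 ± 1.59 (SE, adjusted p = 0.926 in edgeR's quasi-likelihood test, exact permutation p = 0.365). Against non-lesional skin it was 4.20 ± 1.7 (adjusted p = 0.973 in edgeR's test, exact permutation p = 0.294). Without the 2 libraries the log2 fold changes were -0.72 and -1.06, and the mean over the remaining 3 was 15.1 ± 4.64 CPM.

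*Klk13*, which had 1 to 36 counts in every WT and non-lesional library, was high in the same 2 libraries. It was at 1.94, 1.75, 1.79, 2.11 and 1.88 CPM in WT and at 16.0, 3.40, 0.412, 2.40 and 3.06 CPM in non-lesional replicates 3, 6, 9, 12 and 15. In lesional replicates 2, 5, 8, 11 and 14 it was at 240, 6.67, 2.0, 558 and 0.971 CPM, from 528, 13, 5, 1112 and 2 counts. The values of lesional replicates 2 and 11 were 14.9 and 34.8 times that of non-lesional replicate 3, the highest of the other 13. *Klk13* did not pass the filter on low counts, because fewer libraries than a group holds had enough reads, and its fold changes come from the fit on all genes. They were 6.38 ± 1.93 against WT (adjusted p = 0.721) and 5.0 ± 1.83 against non-lesional skin (adjusted p = 0.730) in edgeR's test. DESeq2 on all genes called *Klk13* between lesional and WT libraries (adjusted p = 0.00359, as for 14 of all 12855 genes or 0.109%, over a range of 0.00359 to 0.945 across its 18 alternatives) and not between lesional and non-lesional libraries (adjusted p = 0.990). Without replicates 2 and 11 the edgeR log2 fold changes were 0.70 ± 0.64 and -0.66 ± 0.53.

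*Klk7*, the chymotrypsin-like desquamation protease, was the kallikrein with the highest level in every library. WT replicates 1, 4, 7, 10 and 13 had 937, 496, 906, 686 and 922 CPM, and non-lesional replicates 3, 6, 9, 12 and 15 had 967, 570, 741, 704 and 808 CPM. Lesional replicates 2, 5, 8, 11 and 14 had 2617, 595, 711, 3977 and 840 CPM. Here too replicates 2 and 11 exceeded all other libraries, by 2.71 and 4.11 times the highest of them, and the remaining lesional values lay inside the WT range. The log2 fold change was 1.15 ± 0.51 against WT (adjusted p = 0.926) and 1.20 ± 0.51 against non-lesional skin (adjusted p = 0.973) in edgeR's test. Without the 2 libraries it was -0.15 ± 0.20 and -0.08 ± 0.16.

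*Klk5*, the trypsin-like enzyme placed at the start of the cascade, did not share this pattern although its gene is the neighbour of *Klk6*. It had 56.3, 70.7, 107, 121 and 139 CPM in WT replicates 1, 4, 7, 10 and 13, and 76.6, 110, 90.2, 115 and 116 CPM in non-lesional replicates 3, 6, 9, 12 and 15. Lesional replicates 2, 5, 8, 11 and 14 had 90.3, 117, 91.9, 121 and 99.5 CPM, all inside the WT range. The 2 highest of the 15 values were in WT replicates 13 and 10. The log2 fold changes of lesional skin were 0.07 ± 0.22 against WT and 0.03 ± 0.15 against non-lesional skin (edgeR adjusted p = 0.986 and 0.993). Without lesional replicates 2 and 11 they were 0.05 ± 0.25 and 0.02 ± 0.15. The counts of *Klk6* were 0.0659 to 1.33 times those of *Klk5* in the other 13 libraries, and 12.2 and 14.8 times in lesional replicates 2 and 11.

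*Klk14*, the other trypsin-like desquamation protease, was close to the limit of detection with 1 to 16 counts per library. Its values were 1.55, 6.99, 1.34, 2.95 and 0.376 CPM in WT replicates 1, 4, 7, 10 and 13, and 0.824 to 2.97 CPM in non-lesional libraries. In lesional replicates 2, 5, 8, 11 and 14 it was at 2.72, 1.54, 2.0, 7.02 and 3.40 CPM. The highest lesional value lay next to the highest WT value, and differences at this depth were not detectable. The log2 fold changes on all genes were 0.34 ± 0.57 against WT and 0.81 ± 0.55 against non-lesional skin (edgeR adjusted p = 0.900 and 0.730). Without lesional replicates 2 and 11 they were -0.18 ± 0.64 and 0.30 ± 0.66.

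*Klk8*, a trypsin-like kallikrein also called neuropsin, was at 16.3 to 37.9 CPM in WT (median 20.1) and 17.8 to 34.5 CPM in non-lesional libraries (median 25.1). Lesional replicates 2, 5, 8, 11 and 14 had 43.1, 25.7, 22, 129 and 33.0 CPM. Replicate 11 was 3.40 times and replicate 2 only 1.14 times the highest of the other 13 libraries. The log2 fold change was 0.97 ± 0.48 against WT and 0.94 ± 0.46 against non-lesional skin (edgeR adjusted p = 0.926 and 0.973), and without the 2 libraries it was 0.05 ± 0.28 and 0.03 ± 0.23. The antisense gene *2310002F09Rik* that shares bases with *Klk8* was at 2.72 and 8.02 CPM in lesional replicates 2 and 11 and at 3.56 to 10.9 CPM in the other 13 libraries, so it was not highest where *Klk8* was.

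*Klk10* and *Klk11* were a step less extreme. *Klk10* had 137, 70.7, 215, 87.7 and 230 CPM in WT replicates 1, 4, 7, 10 and 13, 105 to 171 CPM in non-lesional libraries, and 331, 58.5, 117, 240 and 115 CPM in lesional replicates 2, 5, 8, 11 and 14. Lesional replicate 11 was only 1.04 times the highest of the other 13 libraries, WT replicate 13, and here replicate 2 was the higher of the pair. *Klk11* had 12.7 to 18.4 CPM in WT, 9.80 to 19.2 CPM in non-lesional libraries and 21.8, 14.4, 14.4, 38.1 and 10.2 CPM in lesional replicates 2, 5, 8, 11 and 14. The log2 fold changes of lesional against WT skin were 0.22 ± 0.48 for *Klk10* and 0.43 ± 0.31 for *Klk11* (edgeR adjusted p = 0.976 and 0.927). Without lesional replicates 2 and 11 they were -0.62 ± 0.44 and -0.18 ± 0.25. Against non-lesional skin they were then -0.46 ± 0.24 and -0.20 ± 0.26.

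**Figure D2:**
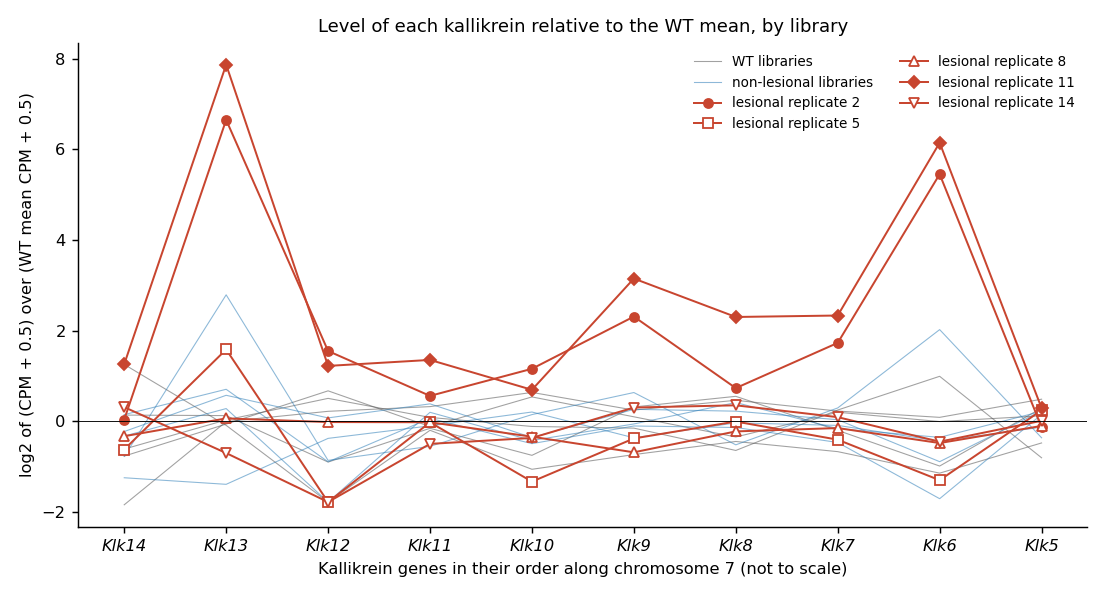
The lines join the kallikrein genes in their order along chromosome 7 (x axis, not to scale), and the y axis is the log2 ratio of CPM + 0.5 to the WT mean + 0.5, 1 line for each library. In lesional replicates 2 and 11 (filled symbols) the line is highest at *Klk13* and *Klk6* and close to 0 at *Klk5*, and the 3 other lesional libraries (open symbols) run among the WT and non-lesional lines.

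The high values were thus not a uniform shift of the whole cluster. In lesional replicate 11, *Klk6* was at 72.1 times and *Klk7* at 5.04 times its WT mean, while *Klk5* was at 1.22 times. In lesional replicate 2 the same ratios were 44.6, 3.32 and 0.914. *Klk9*, which lies between *Klk10* and *Klk8* and is not among the 9 genes, had 195 and 348 CPM in these 2 libraries against 23.1 to 60.6 CPM in the other 13. Of the 18 protein-coding kallikrein genes outside the 9, 14 had no count in any library, and *Klk4*, *Klk12*, *Klk1b26* and *Klk9* were the exceptions.

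*Spink5*, the inhibitor, whose gene is on chromosome 18, kept within a narrow range, with a coefficient of variation of 10.1% in WT, 9.10% in non-lesional and 22% in lesional libraries. It had 2505, 1939, 2430, 2132 and 2234 CPM in WT replicates 1, 4, 7, 10 and 13, and 2140, 1673, 2072, 1960 and 1992 CPM in non-lesional replicates 3, 6, 9, 12 and 15. Lesional replicates 2, 5, 8, 11 and 14 had 2685, 1821, 1937, 2969 and 2057 CPM. Replicates 2 and 11 were again highest, but by only 1.07 and 1.19 times the highest of the other 13 libraries. The log2 fold change of lesional against WT was 0.03 ± 0.18 (edgeR adjusted p = 0.993), and of lesional against non-lesional 0.22 ± 0.17 (edgeR adjusted p = 0.973). Without lesional replicates 2 and 11 it was -0.22 ± 0.16 and -0.02 ± 0.14. Between non-lesional and WT libraries it was -0.19 ± 0.12, with overlapping groups (edgeR adjusted p = 0.9998, two-sided exact permutation p = 0.0794).

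The count of kallikrein transcripts per *Spink5* transcript was computed within each library, where scaling of library sizes cancels. The 8 kallikreins summed to 0.487 ± 0.0961 counts per *Spink5* count in WT (SD, n = 5, range 0.355 to 0.615). The ratio was 0.543 ± 0.0548 in non-lesional libraries (range 0.50 to 0.633). In lesional replicates 2, 5, 8, 11 and 14 it was 1.66, 0.455, 0.505, 2.31 and 0.544. Kallikrein counts were therefore below those of *Spink5* in 13 libraries and above them in 2. With the desquamation proteases *Klk5*, *Klk7* and *Klk14* alone, the ratio was 0.296 to 0.475 in WT, 0.401 to 0.488 in non-lesional and 0.392 to 0.458 in the other 3 lesional libraries, and 1.01 and 1.38 in lesional replicates 2 and 11.

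**Figure D3:**
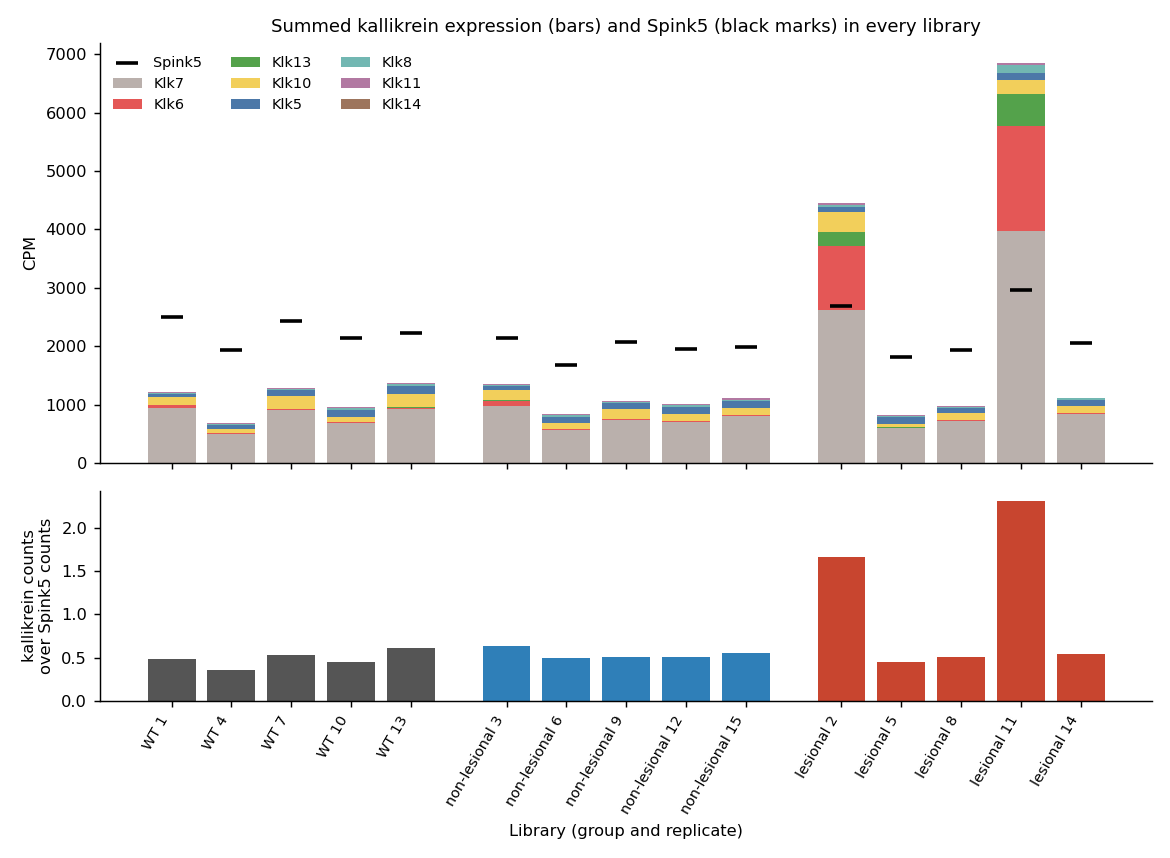
The upper panel stacks the CPM of the 8 kallikreins for each library (bars) beside *Spink5* (black marks), and the lower panel gives the ratio of summed kallikrein counts to *Spink5* counts. The bars stay below the *Spink5* mark in all libraries but lesional replicates 2 and 11, whose ratios are 1.66 and 2.31, and *Klk6* and *Klk13* fill a visible part of the bar in those 2.

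The make-up of the kallikrein counts in these 2 libraries also lay outside the WT range. *Klk7* made up 67.1% to 77.1% of kallikrein counts in WT, and 58.8% and 58.0% in lesional replicates 2 and 11. *Klk6* made up 1.27% to 4.09% in WT and 24.8% and 26% in the 2 libraries. *Klk13* made up at most 0.254% in WT and 5.38% and 8.14% in the same pair. *Klk5* had 4.63% to 12.6% in WT and only 2.03% and 1.76% in the pair, at a level inside its WT range. Non-lesional replicate 3 lay between, with 7.53% *Klk6* and 1.18% *Klk13*.

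Between non-lesional and WT skin none of the kallikreins nor *Spink5* passed an adjusted p of 0.05, and neither did any of the 13021 genes tested (0%). The 7 genes that passed the filter (all but *Klk13* and *Klk14*) had adjusted p = 0.9998 in edgeR's test. DESeq2 called 3 of all genes and none of these 7, and limma's voomWithQualityWeights called 0. None of the 7 had an unadjusted p under 0.05 in either direction, where 1.85% of all genes did higher and 1.31% lower (411 genes in both directions). Their median log2 fold change was 0.02, against -0.0027 for all genes. *Klk13*, which failed the filter, was at 1.37 ± 0.47 on the log2 scale (edgeR adjusted p = 0.747), and without non-lesional replicate 3 it was at 0.28. The exact permutation test on log2 CPM gave p = 0.476 for *Klk13*, and the smallest value it can give in a design of 5 against 5 is 0.00794.

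Between lesional and WT skin edgeR called none of the 7 genes that passed the filter and 0 of 12918 genes (0%), and among all genes DESeq2 called 1 and voomWithQualityWeights 0 after the same filter. The 7 log2 fold changes were all positive in the main fit, with a median of 0.43 against -0.0034 for all genes. Alternatives turned some of them negative, among them *Spink5* at -0.0021 with upper quartile scaling, and *Klk10* at -0.048 and *Spink5* at -0.077 with voomWithQualityWeights. With single libraries left out, *Klk5*, *Klk10* and *Spink5* fell as low as -0.072, -0.16 and -0.080. *Klk6*, *Klk7*, *Klk10*, *Klk11* and *Spink5* were negative without lesional replicates 2 and 11. *Klk6* and *Klk7*, 2 of the 7, had an unadjusted p under 0.05 in the higher direction, where 3.24% of all genes did, and 0 were lower, where 1.56% of all genes were (621 genes in both directions). Without lesional replicates 2 and 11 the median was -0.18 and none of the 7 had such a p, where 1.42% of all 13415 genes were higher and 1.51% lower. Between lesional and non-lesional skin none of the 7 and 0 of 12864 genes (0%) were called by edgeR, DESeq2 or voomWithQualityWeights, and again *Klk6* and *Klk7* were higher at an unadjusted p under 0.05, where 2.89% of all genes were higher and 1.33% lower (543 genes in both directions). The median there was 0.40. Without the 2 libraries it was -0.08 and none of the 7 had such a p, where 1.47% of all 13403 genes were higher and 2.04% lower. Leaving out single libraries gave 0 to 3 genes with such a p in either comparison, and these 2 comparisons share the same lesional libraries. For all 9 genes the groups overlapped in every comparison, and of all genes tested 0.66% did not overlap between non-lesional and WT, 0.689% between lesional and WT and 0.622% between lesional and non-lesional libraries. The exact permutation p for lesional against WT or non-lesional skin was 0.135 or more, lowest for *Klk13*.

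**Figure D4:**
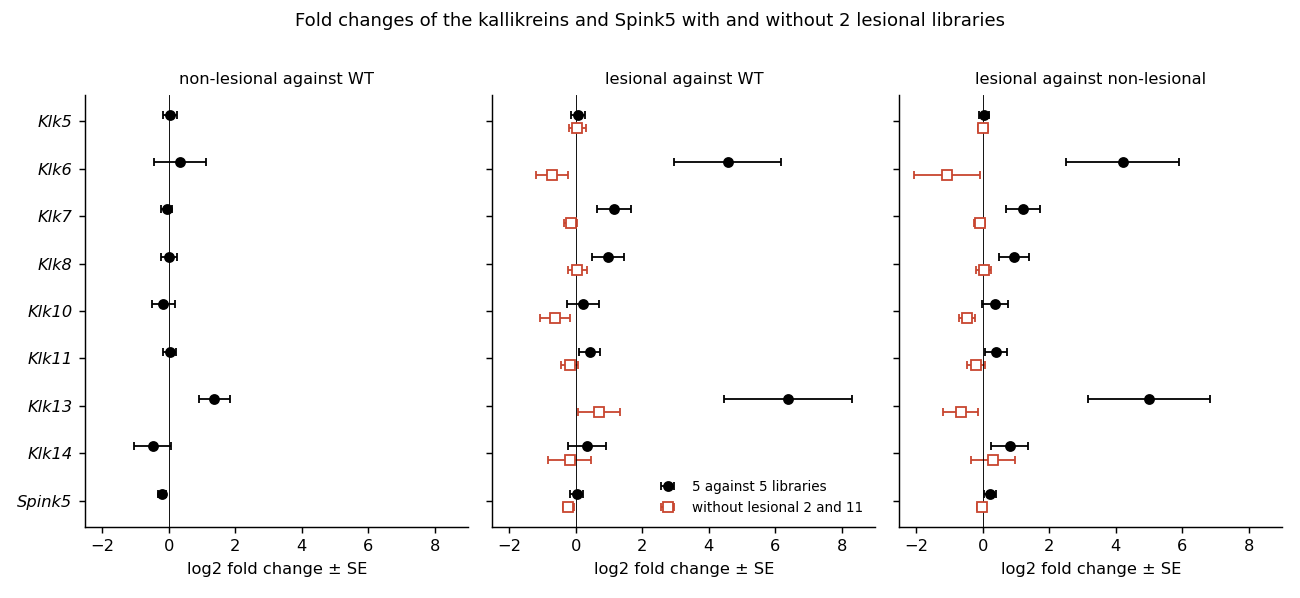
Points are log2 fold changes of the 9 genes with standard errors (x axis) in the 3 comparisons, black for 5 against 5 libraries and open red squares without lesional replicates 2 and 11. *Klk6* and *Klk13* have the largest values with lesional skin (4.56 and 6.38 against WT) and the widest errors, and the red squares lie at 0.70 or lower.

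The 2 highest of the 15 values lay in lesional replicates 2 and 11 for 7 of the 9 genes, all but *Klk5* and *Klk14*. Of the 7 genes kept by the filter over all 15 libraries 6 had this order, and 9.59% of all 13461 genes kept there had it. The third highest value of *Klk6*, *Klk7* and *Klk13* was in non-lesional replicate 3, and the fourth highest of *Klk6* and *Klk7* in WT replicate 1. The same 4 libraries had the 4 highest values of *Krt6b*, with 8733 CPM in lesional replicate 11, 3531 in lesional replicate 2, 220 in non-lesional replicate 3 and 17.1 in WT replicate 1.

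**Figure D5:**
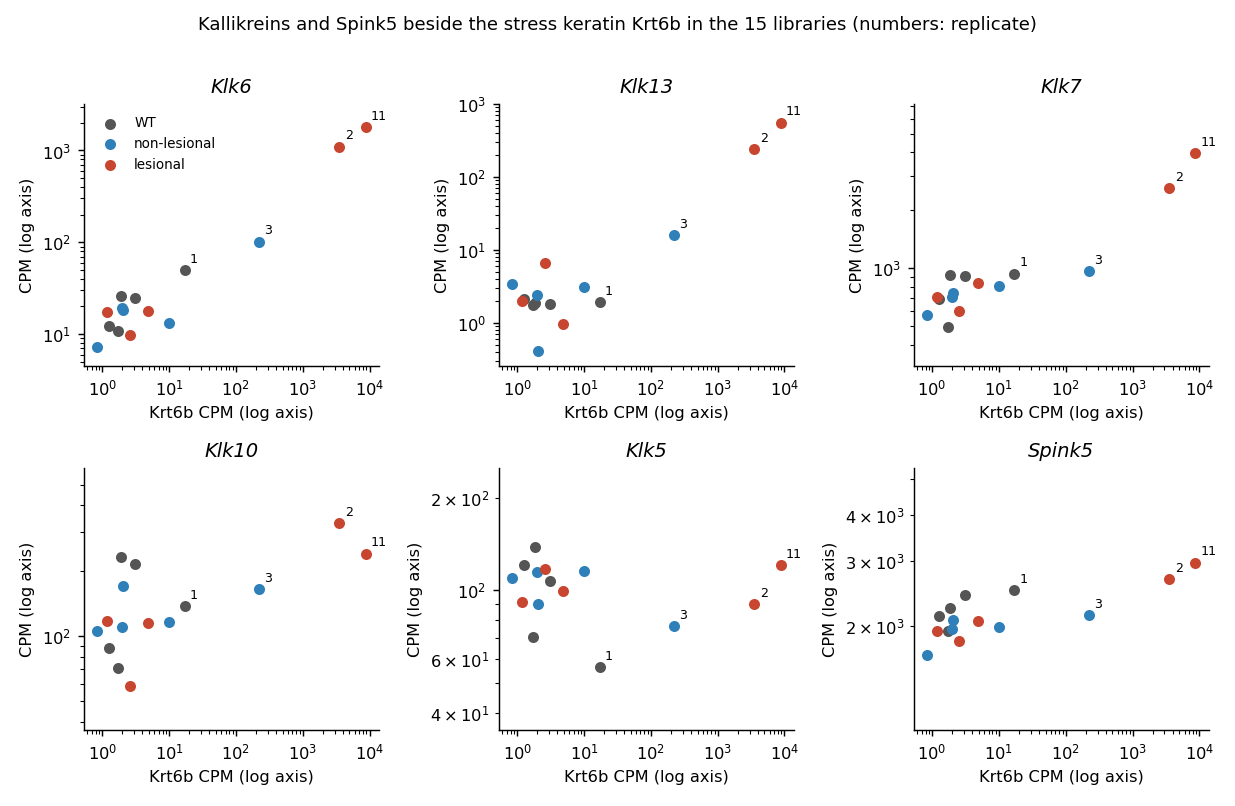
Each panel plots the CPM of 1 gene against that of *Krt6b* in the same library (both log axes), coloured by group, with the replicate numbers of the 4 libraries highest in *Krt6b*. *Klk6* and *Klk7* follow the order of *Krt6b* in those 4 libraries, *Spink5* moves from 2140 to 2969 CPM between non-lesional replicate 3 and lesional replicate 11, and *Klk5* lies between 56.3 and 121 CPM in these 4 libraries, within its range of 56.3 to 139 CPM in WT.

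The other markers of hyperplastic or stressed epidermis were highest in the same libraries. The summed CPM of the 12 genes of that list was 728 to 2700 in WT, 799 to 2224 in non-lesional and 773 to 40308 in lesional libraries, with 17700 and 40308 in replicates 2 and 11 and at most 1074 in the other 3. Its most abundant genes *Krt6a* and *Krt17* were at 15409 and 4849 CPM in lesional replicate 11. Of its 5 genes tested against WT, 4 were higher in lesional skin at an unadjusted p under 0.05 and 0 were called. Without the 2 libraries 0 of 5 were higher and 1 was lower at that p, with a median log2 fold change of -1.0. The neutrophil list summed to 5.90 to 12.4 CPM in WT, 4.45 to 12.4 in non-lesional and 4.85 to 112 in lesional libraries, with 25.9 and 112 CPM in replicates 2 and 11, and 3 of its 10 genes, *Mpo*, *Ly6g* and *Csf3r*, had no count in any library. Its most abundant genes *Mmp9* and *Retnlg* were at 91.8 and 11.5 CPM in lesional replicate 11 and at 19.96 and 0.454 CPM in lesional replicate 2. *Mmp9* thus held most of the sum in both libraries. *Cxcr2*, a chemokine receptor of neutrophils named after its values were seen, was at 4.99 and 5.52 CPM in lesional replicates 2 and 11 and at most at 1.03 CPM elsewhere. Other genes of the list, also named after their values were seen, did not rise in this way. *Elane* and *Ltf* had no count in these 2 libraries, and *Ngp* had 1 count over all libraries. *Mmp8* was at 0.454 and 2.51 CPM there and at most at 1.34 CPM elsewhere. The part of these markers in the kallikrein values was not tested.

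The lists of other tissues varied too. The skeletal muscle list summed to 3177 CPM in lesional replicate 11 and to 13701 to 31069 CPM in the other 14 libraries, led by *Acta1* and *Myh4*. *Krt10*, the main keratin of the suprabasal layers that also hold the kallikreins, was at 1369 CPM in lesional replicate 11 and 1048 in lesional replicate 14, against 2145 to 5016 CPM in the other 13 libraries. *Krt77* was at 1014 and 2146 CPM there, against 2116 to 3430 CPM in the other 13, so for this gene replicate 14 lay inside their range. Other genes of the suprabasal list, named after their values were seen, were highest in lesional replicate 11, among them *Krt1* (615 CPM, at most 301 elsewhere), the cornified envelope precursor *Ivl* (272 CPM, at most 201 elsewhere) and *Cnfn* (248 CPM, at most 186 elsewhere), so the list went both ways in this library. Replicate 14, with low *Krt10*, had *Klk7* and *Spink5* inside the WT range. Among basal genes, *Krt15* was at 637 CPM and *Krt5* at 4325 CPM in lesional replicate 11, against 1166 to 3410 and 1501 to 2708 CPM elsewhere. The sebaceous list summed to 1161 to 2171 CPM over all libraries, led by *Scd1* and *Far2*, and the adipocyte list to 1126 to 3294 CPM, led by *Fabp4* and *Cfd*. The adipocyte sum was 1126 CPM in lesional replicate 11 and 1333 in replicate 2, against 1227 to 3294 CPM elsewhere, and all 7 of its genes had negative log2 fold changes of lesional against non-lesional skin, of which 1 (*Fabp4*, -0.56 ± 0.21) had an unadjusted p under 0.05 and 0 were called. The macrophage list, led by *Mrc1* and *Csf1r*, summed to 330 to 657 CPM in WT, 429 to 549 in non-lesional and 423 to 666 in lesional libraries, with 614 and 666 CPM in lesional replicates 2 and 11. Of its 8 genes 2 were higher and 0 lower at an unadjusted p under 0.05 in each lesional comparison, and 0 were called. Without lesional replicates 2 and 11, 1 was higher and 0 lower against WT, and 0 were higher and 1 lower against non-lesional skin. The 2 genes were *C1qa* and *Aif1* against WT and the complement subunits *C1qa* and *C1qb* against non-lesional skin. *C1qa* was at 120 and 142 CPM in lesional replicates 2 and 11 and at 43.8 to 103 CPM elsewhere, and *Aif1* was at 16.3 and 25.1 CPM there and at 4.25 to 15.5 CPM elsewhere. *Adgre1* and *Csf1r* had negative log2 fold changes against WT, of -0.10 ± 0.31 and -0.05 ± 0.18 (edgeR adjusted p = 0.986 and 0.992), and these genes other than *Csf1r* are named after their values were seen. The hair follicle list was highest in WT replicate 1 (1482 CPM, against 51.3 to 212 CPM elsewhere), led by *Tchh* (966 CPM) and *Krt75* (73.7 CPM), and the part of any of these in the kallikrein values was not tested.

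Across the 15 libraries the 9 genes fell into a set that ranked alike and others that did not. Spearman's rho was 0.94 between *Klk6* and *Klk7*, 0.87 and 0.88 between *Klk10* and these, and 0.88 between *Spink5* and each of *Klk6* and *Klk7*. Over the 10 WT and non-lesional libraries alone the same values were 0.94, 0.72 and 0.77, and 0.81 and 0.82. *Klk5* ranked with *Klk8* (0.71, and 0.93 over the 10 libraries) and not with *Klk6* (-0.15) or *Spink5* (-0.03). *Klk14*, with few counts per library, ranked against *Klk10*, *Klk6*, *Klk7* and *Spink5* over the 10 libraries (-0.94, -0.78, -0.77 and -0.66). Over all 15 libraries these values were -0.29, -0.21, -0.18 and -0.10. These values are descriptions, and the genes were measured in the same libraries, which vary in tissue composition. The genes with a pattern most like the mean log2 CPM of the 8 kallikreins included *Il18*, a cytokine of the IL-1 family (rho 0.92), *Scnn1a*, a subunit of the epithelial sodium channel (0.90), *Trex2*, a keratinocyte exonuclease (0.90), and *Tle6* (0.90), among 13454 genes ranked. Those most like *Spink5* were *Clcn3* (0.93), *Lypd3* (0.92), *Ier3* (0.91), *Tfap2a*, a transcription factor of keratinocytes (0.91), and the cornified envelope precursor *Sprr1a* (0.90).

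Other proteases of the epidermis did not pass the test either. Of 29 genes on the list 23 were tested, 0 were called, and 3 were higher and 0 lower than WT at an unadjusted p under 0.05, with a median log2 fold change of 0.38. Against non-lesional skin 5 were higher and 0 lower, with a median of 0.41, and without lesional replicates 2 and 11 the medians were -0.11 (0 higher, 0 lower) and -0.04 (0 higher, 1 lower). *Casp14*, the caspase of terminal differentiation that processes filaggrin, was at 231 and 591 CPM in lesional replicates 2 and 11 and at 61.1 to 116 CPM in the other 13 libraries (log2 fold change 1.42 ± 0.53 against non-lesional skin, edgeR adjusted p = 0.973). *Ctss*, a lysosomal cysteine protease of antigen-presenting cells, was at 186 and 222 CPM there and at 53.5 to 95.8 CPM elsewhere. *Capn2*, a calpain, was at 93.0 and 125 CPM there and at 45.5 to 95.6 CPM elsewhere.

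The list of kallikrein substrates and receptors did not pass the test. Of 17 genes 13 were tested, 0 were called, and 4 were higher than WT and 1 higher than non-lesional skin at an unadjusted p under 0.05, with medians of 0.12 and 0.13, and -0.09 and -0.02 without the 2 libraries. *Dsc1*, a desmosomal cadherin cut during desquamation, was at 133 and 278 CPM in lesional replicates 2 and 11 and at 79.9 to 108 CPM elsewhere. *Dsg1b*, its desmoglein partner, was at 57.6 and 109 CPM there and at 14.6 to 28.7 CPM elsewhere. The more abundant *Dsg1a* was at 189 and 194 CPM there and at 139 to 216 CPM elsewhere. *Cdsn* was at 437 and 353 CPM there and at 205 to 460 CPM elsewhere. Both of these stayed inside the range of the other libraries and are named after their values were seen. *Flg*, filaggrin, was at 621 and 2184 CPM there and at 293 to 525 CPM elsewhere. *Il1b*, a cytokine that did not pass the filter and is named after its values were seen, was at 24.5 and 197 CPM there and at most at 3.11 CPM elsewhere, with a log2 fold change of 5.12 ± 1.86 against WT in the fit on all genes (edgeR adjusted p = 0.721). *Flg2*, filaggrin 2, the most abundant gene of the list and likewise named after its values were seen, was lowest in these libraries, with 842 and 441 CPM in lesional replicates 2 and 11 and 1173 to 1731 CPM elsewhere, and a log2 fold change of -0.48 ± 0.27 against WT (edgeR adjusted p = 0.926).

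None of the other inhibitors passed the test. Of the 30 genes on the list (serpins, cystatins, stefins, whey acidic proteins, the Kunitz-type *Spint1* and *Spint2*, and *A2ml1*) 18 were tested and 0 were called, and at an unadjusted p under 0.05, 3 were higher and 1 lower in lesional skin against WT and the same numbers against non-lesional skin, with medians of 0.09 and 0.15 and, without the 2 libraries, of -0.06 (1 higher, 0 lower) and -0.17 (0 higher, 3 lower of 19 then tested). The list summed to 2819 and 5396 CPM in lesional replicates 2 and 11 and to 1532 to 2018 CPM elsewhere. *Stfa3*, a stefin that inhibits cysteine proteases, was at 624 and 2308 CPM there and at 1.54 to 60.6 CPM elsewhere, with a log2 fold change of 7.10 ± 2.14 against WT (edgeR adjusted p = 0.926). Its relatives *Stfa1* and *Stfa2*, the serpin *Serpinb3a* and the cystatin *Cstb* were likewise highest in these 2 libraries, and all 5 are named after their values were seen. Reads that fit near-identical stefin copies equally may have been lost, since only unique matches of high quality were kept. *Wfdc5*, a whey acidic protein, was at 64.4 and 107 CPM in lesional replicates 2 and 11 and at 34.0 to 52.4 CPM elsewhere. *Serpinb7*, an epidermal serpin, lay at the low end, with 19.5 and 11.5 CPM in these libraries against 21.4 to 44.3 CPM elsewhere. *Serpinb1a*, an inhibitor of neutrophil proteases, had a log2 fold change of 0.63 ± 0.27 against non-lesional skin (edgeR adjusted p = 0.973). Of 11 other Kazal-type inhibitors only *Spink10* was tested, with 0.05 ± 0.42 on the log2 scale against non-lesional skin, and the whole list summed to 4.22 to 27.6 CPM, so *Spink5* held nearly all Kazal-type inhibitor counts. *Spink12* and *Slpi* did not pass the filter and are named after their values were seen. *Spink12* was at 4.08 and 21.1 CPM in lesional replicates 2 and 11 and at most at 0.448 CPM elsewhere. *Slpi*, of the list of other inhibitors, was at 22.2 and 24.6 CPM there and at most at 2.33 CPM elsewhere. Of the 18 other kallikreins *Klk9* alone was tested, and its log2 fold change was 1.73 ± 0.73 against WT and 1.61 ± 0.74 against non-lesional skin (edgeR adjusted p = 0.926 and 0.973), and -0.21 and -0.32 without the 2 libraries.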

How the data were processed

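RNA sequencing libraries of skin were analysed from 15 samples. The authors clipped adaptors with cutadapt 2.10, removed QuantSeq features and aligned the reads by subread 2.0.1 against GRCm38 plus ERCC92 spike-ins. They kept unique primary matches of high quality, and deposited counts per gene from featureCounts 2.0.1, which counts a read for every gene it overlaps. These counts are not normalised. The deposited CPM equal counts over library totals and were not tested. The 92 spike-in rows held 0 counts and were left out.

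The 3 pairs of groups were each fitted on their own libraries in edgeR 4.0.16 (TMM, filterByExpr, robust quasi-likelihood F-test), with Benjamini-Hochberg adjustment over all genes tested and a threshold of 0.05. The SE is the absolute log2 fold change over the square root of F. Single genes were also compared by a two-sided exact permutation test of mean log2 CPM (prior count 2) over 252 regroupings. *Klk13* and *Klk14* did not pass the filter and were fitted on all genes. The fit was tested on simulated counts of lesional against WT, where 53 of 90 genes changed by 1 and 96 of 96 changed by 2 on the log2 scale were called, and 3 of 12417 unchanged genes. In that simulation all libraries of a group shifted together. It therefore does not show how often the fit calls a change present in only some lesional libraries, as for *Klk6*. Counting error alone limits genes with few counts, and PCR copies were not removed. Alternatives were DESeq2 1.42.0, limma 3.58.1 voomWithQualityWeights, DESeq2 size factors, upper quartile scaling, library totals only, other filters, all 15 libraries in 1 fit, no robust estimation and leaving out each replicate. Positions came from GENCODE M21 and promoters from RefSeq (GRCm38.p6).

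The 9 genes, the 14 gene lists and the comparisons were chosen with earlier results of these data known. Beside the 9, genes are named as at most 3 tested genes of each of 5 pathway lists with the smallest p between lesional and non-lesional libraries, the 2 most abundant genes of each of 9 tissue lists, the 5 genes ranking most like the kallikreins and the 5 most like *Spink5*, and neighbours in the cluster. One gene that this rule names is not reported here. *Krt6b*, *Otulin*, *2310002F09Rik* and the genes without counts were named in addition, *Krt6b* after its values were seen, as were other list genes where the text says so.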

Additional observations from a re-analysis of the deposited data

Results flagged for a closer look

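In groups of 5 libraries, 1 value lay far from the other 4 (a gap to the nearest value over 0.71 of the range) in 3 of the 30 groups of values examined, where chance gives about 1 in 20. *Klk6* was at 102 CPM in non-lesional replicate 3, with a gap of 0.873 of the range. *Klk13* was at 16.0 CPM in the same library, with a gap of 0.809. *Klk8* was at 129 CPM in lesional replicate 11, with a gap of 0.802. The pair of high lesional libraries is not marked this way for *Klk6*, *Klk7* or *Klk13*, since 2 high values leave no single gap.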

How the results depend on the processing

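None of the 7 genes that passed the filter was called under any of the 59 alternatives, and *Klk13* was called once, by DESeq2 on all genes against WT (log2 fold change 6.43, adjusted p = 0.00359). No paired analysis was run, because no replicate number occurs in more than 1 group and the labels name no pairs. The replicate numbers run in turn through WT, lesional and non-lesional libraries, and the labels do not say what this order means. The count of genes with an unadjusted p under 0.05 was 2 against WT and 2 against non-lesional skin, 3 in both with DESeq2, and 0 in both with voomWithQualityWeights and in both without lesional replicates 2 and 11, 1 against WT with library totals only, and 0 to 3 in both when each replicate was left out in turn. For non-lesional against WT it went from 0 to 2 without a filter (*Klk13* and *Spink5*). In the lesional comparisons without a filter, *Klk7* no longer had such a p (edgeR unadjusted p = 0.0849 against WT and 0.0665 against non-lesional skin). *Klk13* had it there (edgeR unadjusted p = 0.0105 and 0.0250). The median log2 fold change against WT ran from 0.073 to 0.59 and against non-lesional skin from 0.22 to 0.59 over single replicates left out, and was 0.18 and 0.12 with voomWithQualityWeights and -0.18 and -0.084 without lesional replicates 2 and 11, a repeat chosen after seeing the data. Without a filter the median against non-lesional skin was 0.81, since *Klk13* and *Klk14* were then among the genes tested. The ratio of kallikreins to *Spink5* in non-lesional libraries was 0.436 with *Klk5*, *Klk7* and *Klk14* alone. The lesional mean of 1.09 ran from 0.790 to 1.25 over single replicates left out, lowest without replicate 11, and was 0.732 with *Klk5*, *Klk7* and *Klk14* alone and 0.501 without replicates 2 and 11.

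The sign of the log2 fold change turned in 52 of 519 comparisons with an alternative, and none of the values concerned had been called. Without lesional replicates 2 and 11, against WT, *Klk6* turned to -0.72, *Klk7* to -0.15, *Klk10* to -0.62, *Klk11* to -0.18, *Klk14* to -0.18 and *Spink5* to -0.22, and against non-lesional skin *Klk6* turned to -1.06, *Klk7* to -0.084, *Klk10* to -0.46, *Klk11* to -0.20, *Klk13* to -0.66 and *Spink5* to -0.022. With voomWithQualityWeights *Klk6* turned to -0.076 for non-lesional against WT, *Klk10* to -0.048 and *Spink5* to -0.077 for lesional against WT, and *Klk5* to -0.026 and *Klk10* to -0.00094 for lesional against non-lesional. Upper quartile scaling turned *Spink5* to -0.0021 against WT and *Klk5* to -0.0036 against non-lesional skin, and library totals turned the latter to -0.0077. Leaving out single replicates gave ranges across 0 for non-lesional against WT of -0.11 to 0.19 (*Klk5*), -0.79 to 0.77 (*Klk6*), -0.19 to 0.029 (*Klk7*), -0.11 to 0.20 (*Klk8*), -0.33 to 0.062 (*Klk10*), -0.076 to 0.14 (*Klk11*) and -0.76 to 0.27 (*Klk14*). For lesional against WT these were -0.072 to 0.22 (*Klk5*), -0.16 to 0.44 (*Klk10*), -0.12 to 1.07 (*Klk14*) and -0.080 to 0.10 (*Spink5*), and for lesional against non-lesional -0.040 to 0.085 (*Klk5*). For *Klk6* the range was 3.53 to 4.98 against WT and 3.18 to 5.37 against non-lesional skin, for *Klk7* 0.60 to 1.37 and 0.65 to 1.42, and for *Klk13* 5.0 to 6.70 and 3.64 to 6.10. The cause was not tested.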
